A study of Mus musculus with 12 samples.

Results

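The cytokine genes of effector T cells on the panel were Il2, Ifng, Tnf, Il4 and Lta. They were taken by their probe names and are 5 of the 748 endogenous genes measured. Each gene has a single probe, and its count in a lane was judged against the 8 negative control probes of the same lane, which have no target in mouse RNA. A count was called above background where it exceeded their mean by more than 2 SD.
When the T cell receptor and CD28 are engaged together, T cells switch on these genes through NFAT, NF-κB and AP-1. IL-2 is the growth factor of activated T cells, IFN-γ and TNF act on macrophages, tumor cells and vessels, lymphotoxin alpha is a close relative of TNF, and IL-4 is the hallmark cytokine of T helper type 2 cells. T cells under chronic stimulation are known to lose IL-2 and TNF production before IFN-γ, and PD-1 is an inhibitory receptor of such cells.

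RNA came from T cells isolated with CD90.2 magnetic beads, at a purity of 80 to 85%, from subcutaneous tumors of KPC.Luc cells, a mouse pancreatic ductal adenocarcinoma line. The female C57BL/6 mice were 8 to 10 weeks old, and treatment began 6 to 7 days after implantation and lasted 10 days. RNA was hybridized to the nCounter Mouse Metabolic Pathways panel, which counts barcoded molecules without amplification, with 1 mouse in each of 12 lanes. The comparisons ask whether ANT008, a peptide antagonist of the receptors of vasoactive intestinal peptide, and an antibody to PD-1 changed the cytokine genes alone or together.
Scram+IgG mice received 10 µg of scrambled peptide under the skin daily and 200 µg of isotype IgG into the peritoneum every 3 days. ANT008+IgG mice received 10 µg of ANT008 in place of the scrambled peptide, with the same IgG. Scram+aPD-1 mice received the scrambled peptide with 200 µg of anti-PD-1 in place of IgG, and ANT008+aPD-1 mice received ANT008 with anti-PD-1. Each of the 4 groups had 3 mice, numbered 1 to 3, and no label pairs animals that share a number.

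The endogenous counts of a lane summed to between 5776 and 1486646. The shallowest 2 lanes were those of ANT008+aPD-1 mice 1 and 3, with totals of 5776 and 24813 and with 156 and 357 of the 748 genes above background. The other lanes had between 517 and 648 genes above background. These 2 lanes therefore stood apart, and the remaining ANT008+aPD-1 lane, that of mouse 2, had a total of 268678.
The lanes of mouse 1 of Scram+IgG and of ANT008+IgG were marked FLAG in the deposited table with no reason given, and both were deep, with totals of 1388586 and 1357305. Their positive control probes summed to 15597 and 14226, the lowest of the 12 lanes, and those of the other lanes to between 20194 and 56747. Where the text says so, fold changes are also given without the 2 shallow lanes or without the 2 lanes marked FLAG.
Counts were scaled by the size of the lane, the geometric mean of the housekeeping genes Dnajc14, Oaz1 and Ubb relative to that of all lanes. The lane size was 0.0277 and 0.0831 for ANT008+aPD-1 mice 1 and 3, so the scaling multiplied the background of these lanes too. The mean of the negative probes became a scaled count of 176 and 76.7 in these lanes and of 1.71 to 25.1 in the others. On the log2 scale the negative probes thus lay 3.43 higher with ANT008+aPD-1 than with Scram+IgG, and 0.95 higher with ANT008+IgG and 0.48 higher with Scram+aPD-1.

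The label of the samples was checked against markers of T cells. The 10 T cell markers on the panel summed to 2246, 367 and 378 per 100000 endogenous counts in Scram+IgG mice 1 to 3 and to 1563, 511 and 844 with ANT008+IgG. With Scram+aPD-1 they summed to 1284, 898 and 710 and with ANT008+aPD-1 to 2130, 1771 and 1818. Leaving aside ANT008+aPD-1 mice 1 and 3, Scram+IgG mouse 1 was the highest and Scram+IgG mice 2 and 3 were the lowest. A negative probe had 84.4 per 100000 on average in ANT008+aPD-1 mouse 1 and 25.7 in mouse 3. Part of the sums of these 2 lanes over 10 probes was therefore background, and their ranks were not read. In a bulk sample, fewer T cells and less RNA per T cell cannot be told apart.
All 10 T cell markers were above background in 11 lanes and 6 of them in that of ANT008+aPD-1 mouse 1, where they had 123 counts in all and a negative probe had 4.88 on average. The marker with the most counts over the 12 lanes was Cd3g.
Markers of other cells were set beside them. The 5 myeloid markers, led by Cd68, summed to 819, 164 and 283 per 100000 with Scram+IgG, to 855, 399 and 346 with ANT008+IgG, to 884, 485 and 457 with Scram+aPD-1 and to 1039, 910 and 826 with ANT008+aPD-1. At least 4 of the 5 were above background in 11 lanes, and 2 in that of ANT008+aPD-1 mouse 1.
The 5 NK cell markers, of which Nkg7 was the most abundant and which T cells also express in part, summed to between 324 and 2043 per 100000, and the 3 markers of regulatory T cells, led by Ctla4, to between 44.4 and 457. The 3 neutrophil markers, led by Fcgr4, ranged from 40.5 to 251, and the 5 mast cell markers, led by Cpa3, from 100.2 to 2701. The 3 B cell markers were at or below background in 8 lanes, and Flt3 for dendritic cells and Pdgfrb for fibroblasts in 6 lanes each. The part of these cells in the values of the cytokine genes was not tested.

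Of the 60 counts of the 5 cytokine genes, 46 were above the background of their lane. All 5 genes were above it in Scram+IgG mice 1 and 3, ANT008+IgG mouse 1 and Scram+aPD-1 mice 1 and 2. Of the 5, ANT008+aPD-1 mice 1 to 3 had 2, 4 and 3 above it. By gene, Tnf was above background in 12 lanes, Lta in 11, Ifng and Il4 in 8 each and Il2 in 7.

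**Figure D1:**
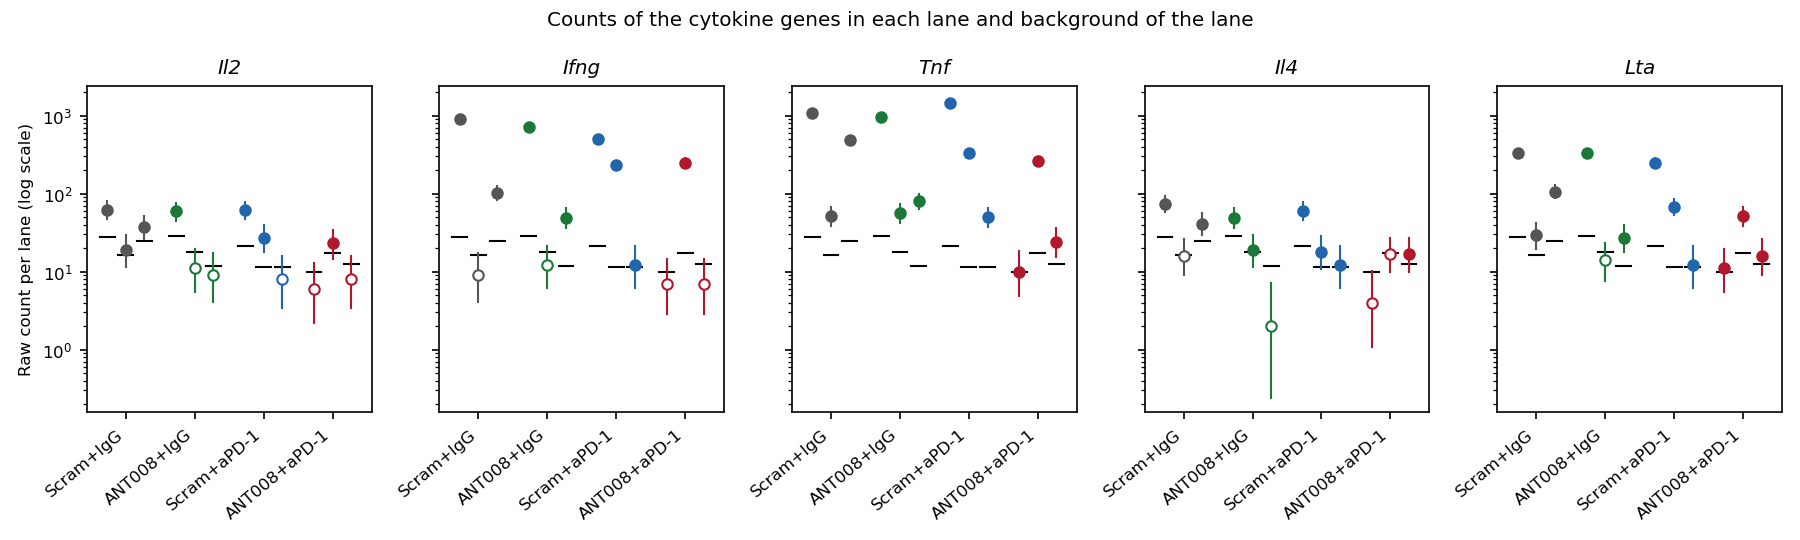
Raw count of each cytokine gene per lane on a log axis, with mice 1 to 3 from left to right in each group; vertical bars are exact 95% Poisson intervals, which cover counting error only, black dashes are the background of the lane and open circles are counts at or below it. Tnf lies above the dash in all 12 lanes, and Il2 stays within 2.85 times the background in every lane.

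Il2, the T cell growth factor, was counted 62, 19 and 37 times in Scram+IgG mice 1 to 3 and 59, 11 and 9 times with ANT008+IgG. It was counted 61, 27 and 8 times with Scram+aPD-1 and 6, 23 and 8 times with ANT008+aPD-1. The background was 27.4, 16.3 and 24.3 counts in the Scram+IgG lanes, 28.2, 17.7 and 11.7 with ANT008+IgG, 21.4, 11.3 and 11.3 in Scram+aPD-1 and 9.94, 17.5 and 12.4 with ANT008+aPD-1. Il2 was therefore low everywhere, with mouse 1 highest in each of the first 3 groups and its largest count, relative to background, 2.85 times the background of Scram+aPD-1 mouse 1.
The scaled counts of Il2 were 10.1, 18.1 and 5.79 with Scram+IgG, 9.38, 18.9 and 18.0 with ANT008+IgG, 10.9, 8.19 and 32.8 in Scram+aPD-1 and 216, 18.1 and 96.3 with ANT008+aPD-1. The scaled counts of 216 and 96.3 were the highest of the 12, and both come from counts below a background that itself scales to 358 and 149. Over the 7 lanes above background the scaled count ran from 5.79 to 18.1, and ANT008+aPD-1 mouse 2 and Scram+IgG mouse 2 both had 18.1.

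Ifng, the main cytokine by which T cells activate macrophages, was counted 913, 9 and 102 times with Scram+IgG and 715, 12 and 49 times with ANT008+IgG. It was counted 494, 230 and 12 times with Scram+aPD-1 and 7, 250 and 7 times with ANT008+aPD-1. Mouse 1 was by far the highest in each of the groups other than ANT008+aPD-1, and the groups overlapped in every comparison of counts.
As a share of the lane, Ifng made up 93.0 per 100000 endogenous counts in ANT008+aPD-1 mouse 2 (exact 95% interval 81.9 to 105). In Scram+IgG it made up 65.8 (61.6 to 70.2) in mouse 1, 3.51 (1.60 to 6.66) in mouse 2 and 6.86 (5.59 to 8.33) in mouse 3. The lane of ANT008+aPD-1 mouse 2 had the largest share among the 8 lanes above background, and the interval, which covers counting error only, did not reach that of Scram+IgG mouse 1.
Scaled counts of Ifng were 148, 8.57 and 16.0 with Scram+IgG, 114, 20.7 and 97.8 with ANT008+IgG, 87.9, 69.7 and 49.2 in Scram+aPD-1 and 252, 197 and 84.2 with ANT008+aPD-1. The 3 Scram+aPD-1 mice lay inside the wide range of Scram+IgG. The 49.2 of Scram+aPD-1 mouse 3 is a count of 12, 1.06 times a background that scales to 46.3, so its closeness to mice 1 and 2 was not read. The values of 252 and 84.2 are counts of 7 in lanes where background scales to 358 and 149.

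Tnf, a cytokine of T cells and of macrophages, was counted 1074, 51 and 482 times with Scram+IgG and 966, 56 and 80 times with ANT008+IgG. It was counted 1468, 336 and 50 times with Scram+aPD-1 and 10, 260 and 24 times with ANT008+aPD-1. Tnf was the gene furthest above background, at 68.5 times in Scram+aPD-1 mouse 1, at 1.93 times in ANT008+aPD-1 mouse 3 and just above it in mouse 1 of that group, where 1 of the 8 negative probes was at or above the 10 counts of Tnf.
The share of Tnf was 77.3, 19.9 and 32.4 per 100000 endogenous counts with Scram+IgG, 71.2, 27.7 and 79.8 with ANT008+IgG, 99.2, 50.5 and 53.5 in Scram+aPD-1 and 173, 96.8 and 96.7 with ANT008+aPD-1. For the 2 shallow lanes counting error alone gives exact 95% intervals of 83.1 to 318 and 62.0 to 144. On this scale the mean negative probe was itself 84.4 in ANT008+aPD-1 mouse 1, above each Tnf share of Scram+IgG and ANT008+IgG, and 25.7 in mouse 3, so the rank of mouse 1 was not read as a difference in Tnf. Mouse 2, where the mean negative probe was 3.16, lay above the Scram+IgG and ANT008+IgG lanes and below Scram+aPD-1 mouse 1.
Scaled counts of Tnf were 175, 48.6 and 75.4 with Scram+IgG, 154, 96.4 and 160 with ANT008+IgG, 261, 102 and 205 in Scram+aPD-1 and 360.4, 205 and 289 with ANT008+aPD-1. The group means were 99.5 ± 66.4 with Scram+IgG, 137 ± 34.9 with ANT008+IgG, 189 ± 80.8 with Scram+aPD-1 and 285 ± 77.7 with ANT008+aPD-1 (SD, n = 3 mice each). Each group overlapped with its neighbor in that order, so that no neighboring pair differed beyond the spread between mice.

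Lta, which encodes lymphotoxin alpha and is the gene next to Tnf with 0 genes listed between them in the RefSeq annotation of GRCm38.p6, was counted 328, 29 and 106 times with Scram+IgG and 336, 14 and 27 times with ANT008+IgG. It was counted 249, 68 and 12 times with Scram+aPD-1 and 11, 52 and 16 times with ANT008+aPD-1. Like Ifng and Tnf, it was highest in mouse 1 of each group other than ANT008+aPD-1.
Scaled counts of Lta were 53.3, 27.6 and 16.6 with Scram+IgG, 53.4, 24.1 and 53.9 with ANT008+IgG, 44.3, 20.6 and 49.2 in Scram+aPD-1 and 396, 41.0 and 193 with ANT008+aPD-1. The values of 396 and 193 rest on counts of 11 and 16, which were 1.11 and 1.29 times the background, and ANT008+aPD-1 mouse 2 lay within the range of each other group.

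Il4 was counted 74, 16 and 41 times with Scram+IgG and 49, 19 and 2 times with ANT008+IgG. It was counted 60, 18 and 12 times with Scram+aPD-1 and 4, 17 and 17 times with ANT008+aPD-1. None of these counts was more than 2.80 times the background of its lane, and with ANT008+aPD-1 mouse 3 alone was above it, at 1.37 times. In ANT008+IgG mouse 3 all 8 negative probes were at or above the 2 counts of Il4.
Scaled counts of Il4 were 12.0, 15.2 and 6.41 with Scram+IgG, 7.79, 32.7 and 3.99 with ANT008+IgG, 10.7, 5.46 and 49.2 in Scram+aPD-1 and 144, 13.4 and 205 with ANT008+aPD-1. The 2 highest values again stood in the 2 shallow lanes, and ANT008+aPD-1 mouse 2, itself below background, lay within the Scram+IgG group.
Apart from Tnf, the order of the group means was Scram+IgG, ANT008+IgG, Scram+aPD-1, ANT008+aPD-1 for Il2 and Il4 and Scram+IgG, Scram+aPD-1, ANT008+IgG, ANT008+aPD-1 for Ifng and Lta. The means of ANT008+aPD-1 were 110.2 ± 99.8 for Il2, 178 ± 85.7 for Ifng, 121 ± 97.7 for Il4 and 210.0 ± 178 for Lta (SD, n = 3 mice). Neighboring groups overlapped for each of these genes.

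Differences between groups were tested by quasi-likelihood in edgeR over 640 endogenous genes, those that exceeded background in 3 or more lanes, and all 5 cytokine genes were among them. With ANT008+IgG against Scram+IgG, 0 of the 5 cytokine genes had an FDR below 0.1 by edgeR, against 0% of the tested genes, of which 3 had an unadjusted p below 0.05. The log2 fold change was 0.44 for Il2, 0.42 for Ifng, 0.45 for Tnf, 0.37 for Il4 and 0.44 for Lta, with standard errors between 0.49 and 1.04 and an FDR of 0.999 for each (edgeR, Benjamini-Hochberg). All 5 values were below their standard errors and near the median of 0.11 over all tested genes, and all 5 were negative without scaling or with scaling by the positive control probes. These scalings also moved the median over all tested genes, to -0.86 and -0.61, with Il4 below it and the other 4 genes above it in both cases. Without the 2 lanes marked FLAG the log2 fold change was 0.70 for Il2, 2.20 for Ifng, 1.03 for Tnf, 0.85 for Il4 and 0.84 for Lta, with an FDR of 0.999 for each. By limma's voom with sample weights, Ifng (2.49, FDR = 0.0299) and Lta (1.44, FDR = 0.0965) were called, beside 6.88% of the tested genes, and DESeq2 called 0 genes. The mice overlapped for all 5 genes, while every ANT008+IgG lane was above every Scram+IgG lane for 2.97% of the tested genes.

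The comparison of Scram+aPD-1 with Scram+IgG shares the Scram+IgG mice with the one before. Here too 0 of the 5 cytokine genes had an FDR below 0.1 by edgeR, against 0% of all tested genes, of which 7 had an unadjusted p below 0.05. The value for Tnf was 0.92 in log2 (standard error 0.49, FDR = 0.988, edgeR) and was above the highest Scram+IgG mouse in 2 of 3 Scram+aPD-1 mice. Those of the others were 0.42 for Il2, 0.26 for Ifng, 0.66 for Il4 and 0.18 for Lta, each below its standard error, beside a median of 0.15 over all tested genes. Without the 2 lanes marked FLAG those of Ifng and Tnf were 2.46 and 1.59, both with an FDR of 0.207, and those of Il2, Il4 and Lta were 0.36, 0.73 and 0.76, with an FDR of at least 0.905. By voom, Ifng (2.23, FDR = 0.0350) and Tnf (1.47, FDR = 0.0393) were called, beside 22.3% of the tested genes, and DESeq2 called 0 genes. No cytokine gene had all its Scram+aPD-1 lanes above Scram+IgG, as 2.97% of the tested genes did.

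With ANT008+aPD-1 against the same Scram+IgG mice, the log2 fold change was 2.93 for Il2 (standard error 0.92, FDR = 0.309 from edgeR with Benjamini-Hochberg adjustment), 2.43 for Lta (0.78, FDR = 0.309), 3.26 for Il4 (1.15, FDR = 0.323), 1.44 for Tnf (0.52, FDR = 0.323) and 1.55 for Ifng (0.95, FDR = 0.473). The median over all tested genes was 0.12. None of the 5 genes had an FDR below 0.1, and neither did any tested gene (0%), while 82 of the tested genes had an unadjusted p below 0.05.
For Tnf all 3 ANT008+aPD-1 mice lay above all Scram+IgG mice in scaled counts (two-sided exact permutation p = 0.1, the smallest that 3 mice against 3 allow), which was so for 7.81% of the tested genes, and the mean negative probe of ANT008+aPD-1 mouse 1 scaled to 176, as high as Tnf in the highest Scram+IgG mouse. Il2 was also separated (p = 0.1 by the same exact test), but through 2 counts below background and otherwise by a difference too small to show in 3 digits, so that the order of its groups says nothing on Il2. For Ifng, Il4 and Lta, 2 of the 3 ANT008+aPD-1 mice lay above the highest Scram+IgG mouse (exact permutation p = 0.2 for each). As differences in mean log2(scaled count + 1) these were 2.71 for Il2, 2.49 for Ifng, 1.67 for Tnf, 2.70 for Il4 and 2.30 for Lta. Each was smaller than the 3.43 by which the negative probes differed on the same scale.
Without the 2 shallow lanes, ANT008+aPD-1 was represented by mouse 2, whose spread was assumed to be that of the other groups. The log2 fold change was then 0.75 for Il2, 1.75 for Ifng, 1.03 for Tnf, 0.30 for Il4 and 0.33 for Lta, with an FDR of at least 0.885 for each (edgeR), and 0% of the tested genes were called. Il2, Il4 and Lta were then each within 1 standard error of 0, and Ifng and Tnf were not. Subtraction of the mean of the negative probes from each count gave 1.23 for Il2, 0.97 for Ifng, 1.06 for Tnf, 2.81 for Il4 and 1.83 for Lta, with none of them called. With counts below background raised to it, Il2, Il4 and Lta (FDR = 0.0846 for each) and Tnf (FDR = 0.0940) were called, beside 19.1% of the tested genes.
The direction depended on the scaling of the lanes. Without scaling the log2 fold change was -1.66 for Il2, -1.95 for Ifng, -2.45 for Tnf, -1.78 for Il4 and -2.55 for Lta, beside a median of -3.44 over all tested genes, so that all 5 genes lay above the median under either scale.
The fold changes also depended on the control mice. Without Scram+IgG mouse 1, Ifng, Tnf and Lta had log2 fold changes of 3.74, 2.11 and 3.00 and an FDR of 0.0298, 0.0347 and 0.0593 (edgeR), and 13.1% of all tested genes were called. Without both lanes marked FLAG Ifng, Tnf and Lta were called as well (FDR = 0.0207, 0.0302 and 0.0677), beside 13% of the tested genes. Without ANT008+aPD-1 mouse 2, Il2, Il4 and Lta were called (FDR = 0.0343, 0.0447 and 0.0343) beside 10.6% of the tested genes, and of the 6 counts of these genes in the remaining ANT008+aPD-1 lanes 3 were above background.
DESeq2 called Il2, Il4 and Lta and 4.69% of the tested genes, and limma's voom with sample weights called all 5 genes and 24.4% of the tested genes. DESeq2 scaled the lanes by its own size factors, and edgeR with those factors called 0 genes. In edgeR, leaving out Scram+IgG mouse 2 or 3 gave an FDR of at least 0.636 for each gene.

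**Figure D2:**
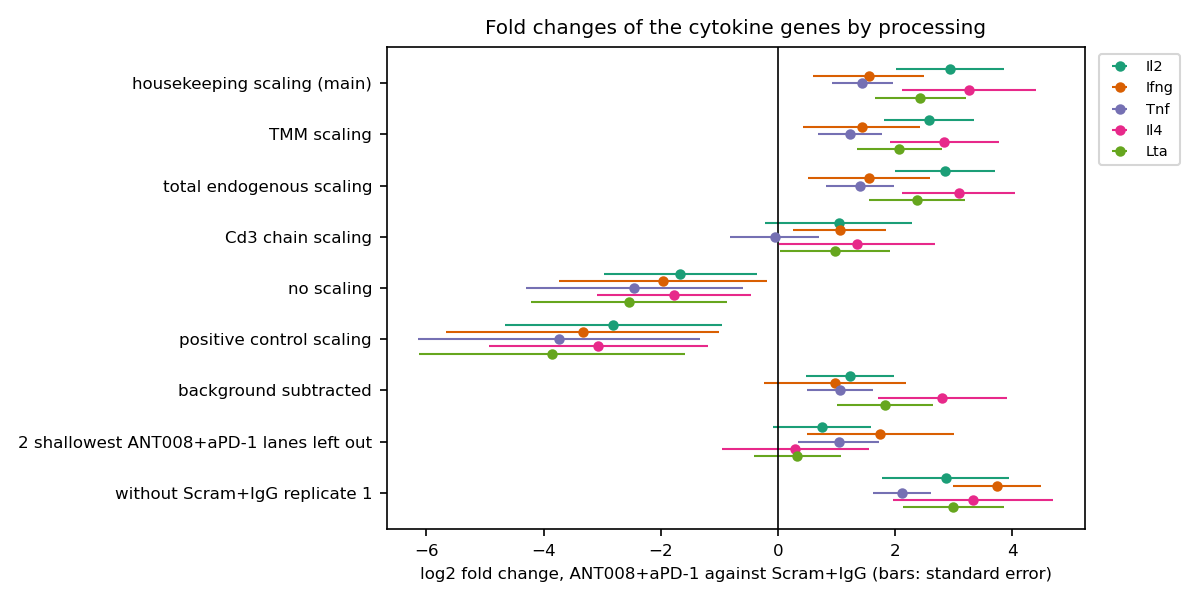
Log2 fold change of each cytokine gene, ANT008+aPD-1 against Scram+IgG, on the horizontal axis, with standard errors as bars, under 9 ways of processing the counts. The values are above 0 with scaling by housekeeping genes, TMM or the endogenous total and below 0 without scaling or with the positive control probes, and scaling by the Cd3 chains gives -0.05 for Tnf.

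ANT008+aPD-1 was next compared with the single agents. Tnf was the one cytokine gene above background in every lane, and it had the smallest fold change of the 5 in each of the 3 comparisons that follow. Against ANT008+IgG its log2 fold change was 0.99 (standard error 0.52, FDR = 0.578 from edgeR), and all 3 ANT008+aPD-1 mice lay above the ANT008+IgG mice (exact permutation p = 0.1), as for 6.25% of the tested genes. Against Scram+aPD-1 it was 0.53 (standard error 0.52, FDR = 0.822 from edgeR), and the mice overlapped (exact permutation p = 0.2), while 4.53% of the tested genes had every ANT008+aPD-1 lane above. The interaction of the 2 agents was 0.08 (standard error 0.71, FDR = 0.993 from edgeR). Without the 2 shallow lanes the 3 values of Tnf were 0.59, 0.12 and -0.33, and without the 2 lanes marked FLAG 1.08, 0.52 and -0.52.
In the order Il2, Ifng, Il4 and Lta, the other genes had 2.49, 1.13, 2.88 and 2.00 over ANT008+IgG (FDR of at least 0.578, edgeR), and 2.52, 1.29, 2.60 and 2.25 over Scram+aPD-1 (FDR of at least 0.747). For the interaction they had 2.08, 0.87, 2.22 and 1.82 (standard errors between 1.04 and 1.56, FDR = 0.993 for each). Without the 2 shallow lanes these became 0.31, 1.33, -0.07 and -0.11 in the first case, 0.38, 1.49, -0.29 and 0.16 in the second and -0.06, 1.07, -0.66 and -0.28 for the interaction. In each of these 3 comparisons 0 of the 5 cytokine genes and 0% of the tested genes had an FDR below 0.1 by edgeR, and 50, 40 and 9 of the tested genes had an unadjusted p below 0.05. DESeq2 called 5, 5 and 0 of the tested genes and voom 5, 0 and 0, none of them a cytokine gene. Without ANT008+aPD-1 mouse 2, which leaves the 2 shallow lanes, Il2 and Lta were called against ANT008+IgG (FDR = 0.0651 for both, beside 4.06% of the tested genes) and against Scram+aPD-1 (FDR = 0.0617 and 0.0615, beside 5.47%), with both counts of Il2 below background.

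The T cell content of the lanes was set beside the cytokine genes through Cd3e, a chain of the T cell receptor complex chosen after its values were seen. Cd3e was counted 3662, 59 and 362 times with Scram+IgG and 2505, 43 and 60 times with ANT008+IgG. It was counted 1532, 536 and 17 times with Scram+aPD-1 and 8, 492 and 24 times with ANT008+aPD-1. As shares these were 264, 23.0 and 24.4 per 100000 endogenous counts with Scram+IgG against 138.5, 183 and 96.7 with ANT008+aPD-1, so that Scram+IgG mouse 1 was the highest and mice 2 and 3 were among the lowest. The 138.5 of ANT008+aPD-1 mouse 1 rests on 8 counts, below the background of 9.94 in that lane.
Over the 8 lanes where Ifng and Cd3e were both above background, the share of Ifng spanned 13.6-fold, while the count of Ifng per 100 counts of Cd3e spanned 3.28-fold, from 24.9 in Scram+IgG mouse 1 to 81.7 in ANT008+IgG mouse 3. In ANT008+aPD-1 mouse 2 it was 50.8, between 32.2 and 70.6 in the lowest and highest of the Scram+aPD-1 mice. The 70.6 rests on 12 counts of Ifng, 1.06 times the background, and 17 of Cd3e. Pearson's r of the log2 shares was 0.887 and Spearman's rho 0.810 (8 lanes), with r = 0.642 without the 2 lanes farthest from the median of Cd3e, all as a description of lanes that share depth and scale.
For Tnf r was 0.769 (rho 0.636) over 11 lanes and 0.797 without the 2 farthest, and for Lta it was 0.553 (rho 0.503) over 10 lanes and 0.479 without 2. The correlations were not tested against each other. Tnf per 100 counts of Cd3e was 29.3 in Scram+IgG mouse 1 and 52.8 in ANT008+aPD-1 mouse 2, and over the 11 lanes with both above background it spanned 10.0-fold, up to 294 in Scram+aPD-1 mouse 3, while the share of Tnf spanned 4.99-fold. For Il2 and Il4 r was 0.216 over 7 lanes and -0.104 over 8. Per 100 counts of Cd3e, Il2 spanned 19.0-fold and Il4 36.2-fold, beside 3.44-fold and 25.3-fold as shares. Lta spanned 7.88-fold, beside 9.04-fold as a share.
With the lanes scaled by the geometric mean of Cd3d, Cd3e and Cd3g, ANT008+aPD-1 differed from Scram+IgG by a log2 fold change of -0.05 for Tnf, 0.98 for Lta, 1.04 for Il2, 1.06 for Ifng and 1.35 for Il4, with an FDR between 0.300 and 0.956 (edgeR). That scaling moved the median of all tested genes to -1.91 and called 192 genes, all of them lower, none of them a cytokine gene.

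**Figure D3:**
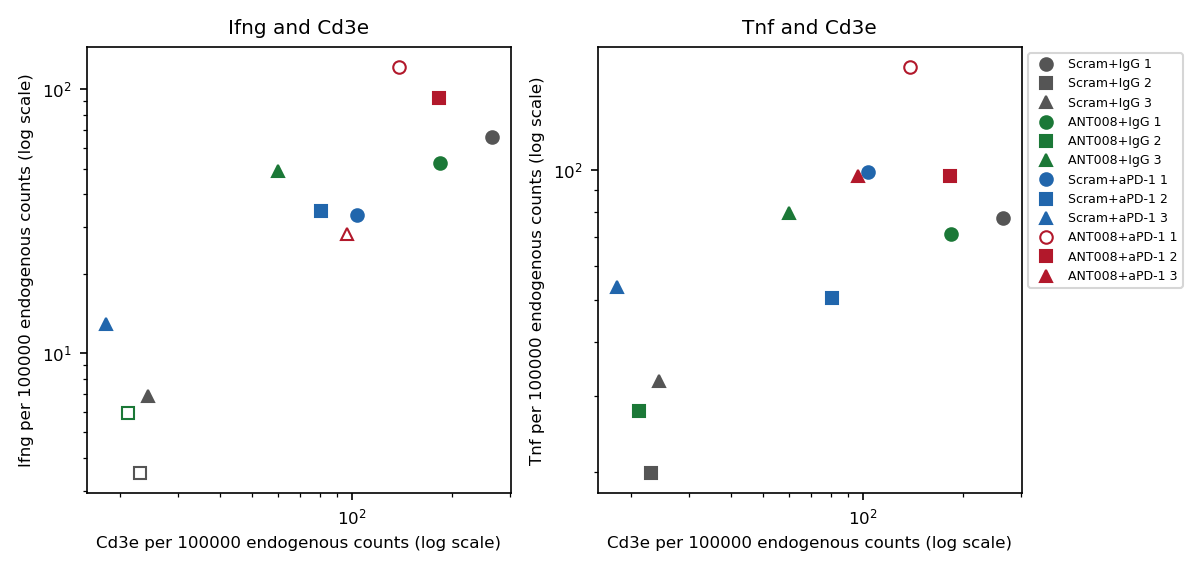
Share of Ifng (left) and Tnf (right) against that of Cd3e, each per 100000 endogenous counts on log axes, with 1 point for each lane, colors for groups and symbols for mice; open symbols are lanes where the cytokine gene or Cd3e was at or below background. Scram+IgG mouse 1 has the highest share of Cd3e, 264, and the shares of Ifng span 13.6-fold over the filled symbols.

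By the highest correlation of scaled log2 values over lanes with both genes above background, the genes most like Ifng were Ccl4 (r = 0.981), Ctla4 (0.977) and Traf6 (0.962), each over 8 lanes. Those most like Tnf were Ass1 (r = 0.933, 11 lanes), Slc16a3 (0.932, 11 lanes) and Cd40lg (0.922, 8 lanes). For Lta they were Trat1 (r = 0.941, 9 lanes), Il2ra (0.921, 10 lanes) and Nt5e (0.901, 8 lanes), and for Il4 Idnk (0.977), Alox15 (0.963) and Cd14 (0.950) over 8 lanes each.
Of these, r fell to -0.212 for Lta with Nt5e and to 0.556 for Tnf with Cd40lg when the 2 lanes farthest from the median were left out, and it was at least 0.680 for the others. The lanes share their scaling and background, and the genes were picked as the highest of 351 to 562 compared. Of the 10 pairs of the cytokine genes themselves, Il2 and Ifng had the highest r, 0.860 over 6 lanes and 0.489 without the 2 farthest, followed by Il4 and Lta with 0.855 over 7 lanes and 0.803 without 2. Tnf and Lta had 0.781 over 11 lanes and 0.830 without 2, Ifng and Lta 0.701 over 8 and 0.395, Ifng and Tnf 0.664 over 8 and -0.01, and Tnf and Il4 0.570 over 8 and 0.105. For Il2 with Lta, Il2 with Tnf and Ifng with Il4, over 6 or 7 lanes, r was between 0.0368 and 0.399 and, without 2 lanes, between -0.723 and 0.941, and Il2 with Il4 had fewer than 6 lanes.

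Of the genes that act with these cytokines, the receptor list had 7 of 21 genes on the panel, of which Il2ra, the high affinity chain of the IL-2 receptor, is the single receptor chain and the others are JAK and STAT proteins. With ANT008+aPD-1 against Scram+IgG 0 of the 7 were called, and their median log2 fold change was 0.70, beside 0.12 over all tested genes. Scaled counts of Il2ra were 152, 42.8 and 42.5 with Scram+IgG and 288, 149 and 337 with ANT008+aPD-1, which in log2 was a change of 1.63 (standard error 0.54, FDR = 0.309, edgeR). The 288 is a count of 8, below the background of its lane. Scram+IgG mouse 1 lay just above ANT008+aPD-1 mouse 2, and the groups overlapped. Without Scram+IgG mouse 1 the value was 2.52 (FDR = 0.0210).
Upstream of the cytokine genes, 13 of 27 listed signaling and transcription factor genes were on the panel, 0 were called and their median was 0.88. The smallest p among them was that of Cd28, the co-stimulatory receptor, with 2.13 (standard error 0.62, FDR = 0.309 from edgeR). The 3 ANT008+aPD-1 mice had scaled counts of 973, 658 and 1420 and the Scram+IgG mice 398, 142 and 152, with no overlap, as for 7.81% of the tested genes. The 973 is a count of 27, in a lane where the mean negative probe scaled to 176.
Downstream, 7 of 22 genes induced by IFN-γ had a median of 0.44, and 7 of 15 genes induced by TNF through NF-κB had a median of 0.68, with 0 called in either list. Nos2, the inducible nitric oxide synthase of macrophages, led the first with 2.59 (standard error 0.70, FDR = 0.309 from edgeR) and raw counts of 385, 17 and 134 with Scram+IgG and 11, 196 and 11 with ANT008+aPD-1, of which that of mouse 3 was below background. Ptgs2, which encodes cyclooxygenase 2, led the second with 1.83 (standard error 0.84, FDR = 0.376). Of the 7 IFN-γ induced genes 4 had a fold change above 0.
Among other cytokines, 5 of 26 listed genes were on the panel, and their median was 1.44 with 0 called. Il10, an inhibitory cytokine, had the smallest p, at 3.82 (standard error 0.79, FDR = 0.242, edgeR) on raw counts of 65, 7 and 36 with Scram+IgG and 7, 41 and 10 with ANT008+aPD-1. As with Il2, its counts in the 2 shallow lanes were below background. The 4 of 7 cytotoxic genes on the panel, Gzma, Gzmb, Prf1 and Nkg7, were above background in all 12 lanes and had a median of 0.82, with 0 called. Gzma had 1.50 (standard error 0.66, FDR = 0.375 from edgeR), with scaled counts of 862, 335 and 515 with Scram+IgG and 1189, 1293 and 2346 with ANT008+aPD-1. The groups did not overlap, as for 7.81% of the tested genes, and the 1189 is a count of 33.
Without the 2 shallow lanes Il2ra had 0.91, Cd28 1.51, Nos2 2.19, Ptgs2 1.75, Il10 2.06 and Gzma 1.18, with an FDR of 0.885 for each (edgeR). The medians were then 0.18 for the receptor list, 0.07 for the upstream genes, 0.29 for IFN-γ induced genes, 0.82 for TNF induced genes, 0.99 for other cytokines and 0.96 for cytotoxic genes, beside -0.27 over all tested genes. Without the 2 lanes marked FLAG edgeR called 1 of 7, 6 of 13, 1 of 7, 1 of 7, 4 of 5 and 2 of 4 genes of these lists in the same order, Il2ra, Cd28, Nos2 and Il10 among them, beside 13% of the tested genes. The medians of the lists were then 0.78, 1.45, 0.37, 1.06, 2.33 and 1.93, beside 0.097 over all tested genes. DESeq2 called Cd28, Nos2 and Il10, beside 4.69%. Voom called 2, 8, 1, 3, 5 and 4 genes of the 6 lists, with Il6 counted in 2 of them, beside 24.4%. The differences between the lists and all tested genes were not tested.
With the single agents 0 genes of any of these lists were called by edgeR or DESeq2. With ANT008+IgG voom called Il2ra of the receptor list, Cd40lg, Fasl and Ltb of the 5 other cytokines and 0 genes of the IFN-γ, TNF and cytotoxic lists, beside 6.88% of the tested genes. With Scram+aPD-1 it called 1, 7, 2, 3, 4 and 2 genes of the 6 lists, beside 22.3%. The medians, first for ANT008+IgG and then for Scram+aPD-1, were 0.25 and 0.27 for the receptor list, -0.01 and 0.20 for the upstream genes, 0.11 and 0.40 for IFN-γ induced genes, 0.38 and 0.51 for TNF induced genes, 0.65 and 0.90 for other cytokines and -0.36 and 0.59 for cytotoxic genes, beside 0.11 and 0.15 over all tested genes. Without the 2 lanes marked FLAG they were 0.35 and 0.46, 0.58 and 1.15, 0.25 and 0.78, 0.87 and 1.02, 1.00 and 1.29 and 0.77 and 1.58 in the same order of lists, beside 0.17 and 0.13, again with 0 genes called by edgeR.

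Each value above rests on 1 probe of 100 bases, and the targets of the cytokine genes are given here. Positions are counted on the RefSeq transcript that the panel names, the sequence is the sense strand from 5′ to 3′, and capitals mark the start codon within the Ifng target.
Il2, bases 314 to 413: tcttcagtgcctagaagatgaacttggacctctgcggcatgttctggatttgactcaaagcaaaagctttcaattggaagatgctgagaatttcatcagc
Ifng, bases 95 to 194: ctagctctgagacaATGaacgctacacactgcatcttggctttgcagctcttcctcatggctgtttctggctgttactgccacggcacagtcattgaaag
Tnf, bases 514 to 613: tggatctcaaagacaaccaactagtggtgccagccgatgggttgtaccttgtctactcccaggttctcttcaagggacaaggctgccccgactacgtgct
Il4, bases 345 to 444: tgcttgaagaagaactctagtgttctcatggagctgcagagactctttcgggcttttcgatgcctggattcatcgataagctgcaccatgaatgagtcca
Lta, the first 30 bases of a target at 776 to 875: ccagcagtgtattctttggagcctttgcac
The Il2, Ifng, Tnf and Il4 targets each have at least 1 reading frame free of stop codons, and the Lta target has none of 3, so that it cannot lie wholly within a coding sequence. The GC content was 43% for Il2, 46% for Lta, 47% for Il4, 50% for Ifng and 54% for Tnf. No pair of the 5 targets shared a run of more than 8 bases, the longest being that of Tnf and Lta.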

How the data were processed

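The authors deposited raw counts of every probe for the 12 lanes, as whole numbers without background subtraction or scaling, with the panel definition that holds the probe target sequences. Lanes were assigned to groups from the sample titles.

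A count was above background where it exceeded the mean of the lane's 8 negative probes by more than 2 SD. The size of a lane came from 3 of the 20 housekeeping genes, those above background in every lane, through their geometric mean. Of the endogenous genes, 640 exceeded background in 3 or more lanes and were tested in edgeR 4.0.16 under R 4.3.3 (glmQLFit, glmQLFTest, 4 groups in 1 model), with Benjamini-Hochberg adjustment and a threshold of FDR < 0.1. The standard error is the fold change divided by the root of the F statistic. The model was tested on simulated data. Single values were compared by two-sided exact permutation of the mean of log2(scaled count + 1). Alternatives used DESeq2 1.42.0, with its own size factors in place of the housekeeping genes, and limma 3.58.1.

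The cytokine genes were always named. Beside them stand the 3 genes most correlated with each cytokine gene above background in at least 8 lanes, and the gene with the smallest p of each pathway list. Cd3e, and the list genes named for a call by another tool, were chosen after their values were seen. The members and lists were chosen with earlier results of these data known. The RefSeq annotation of GRCm38.p6 gave gene names, which matched for all 5 genes, and neighbors.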

Additional observations from a re-analysis of the deposited data

How the results depend on the processing

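The 36 log2 fold changes given, those of the cytokine genes and of 6 genes of the lists, had 1120 values under alternatives: 952 kept direction and side of the FDR threshold, 55 kept direction and passed it, and 113 changed sign. Of the 113, 36 came with positive control scaling, 35 without scaling and 11 with Cd3 chain scaling. The positive control sums were lowest in the deepest lanes, so that scaling by them did not even out depth. The 3 scalings moved the median of all tested genes too, to between -0.59 and -4.58 in the 6 comparisons, so that those changes of sign are not particular to the cytokine genes. The other 31 came under other settings. The cause of the changes was not tested.

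With scaling by positive control probes, the 5 cytokine genes in the order Il2, Ifng, Tnf, Il4, Lta had -0.41, -0.30, -0.38, -0.86 and -0.11 with ANT008+IgG, -0.59, -1.01, -0.14, -0.88 and -0.86 in Scram+aPD-1 and -2.81, -3.33, -3.74, -3.06 and -3.86 with ANT008+aPD-1, each against Scram+IgG. Without scaling they had -0.58, -0.40, -0.54, -0.90 and -0.30 with ANT008+IgG and -1.66, -1.95, -2.45, -1.78 and -2.55 with ANT008+aPD-1, and with Scram+aPD-1 Il2, Ifng, Il4 and Lta had -0.30, -0.48, -0.54 and -0.49. For ANT008+aPD-1 against Scram+IgG the differences in mean log2 counts were -2.36, -2.68, -3.58, -2.40 and -2.92 with positive controls and -1.66, -1.96, -2.85, -1.68 and -2.20 without scaling.

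With Cd3 chain scaling the value was -0.21 for Il2 and -0.0477 for Lta with ANT008+IgG, -0.23 for Il2 and -0.21 for Lta with Scram+aPD-1 and -0.0521 for Tnf with ANT008+aPD-1. Smaller changes of sign were -0.20 for Il2 with ANT008+IgG after background subtraction, -0.0285 for Il4 with ANT008+IgG by limma on log2 values and -0.0302 by voom, and -0.0766 for Lta with Scram+aPD-1 under total endogenous scaling.
In the order Il2, Ifng, Il4, Lta, ANT008+aPD-1 against ANT008+IgG gave -2.39, -3.04, -2.20 and -3.74 with positive controls and -1.09, -1.55, -0.87 and -2.25 without scaling. Against Scram+aPD-1 these were -2.22, -2.32, -2.19 and -2.998, and -1.37, -1.48, -1.24 and -2.05. The interaction had -1.80, -2.03, -1.32 and -2.88, and -0.79, -1.08, -0.34 and -1.76. For Ifng it was also -0.58 with Cd3 chains, -1.67 by voom and -0.92 without the 2 lanes marked FLAG. Without the 2 shallow lanes Il4 and Lta had -0.0651 and -0.11 against ANT008+IgG, Il4 had -0.29 against Scram+aPD-1, and the interaction was -0.0628 for Il2, -0.66 for Il4 and -0.28 for Lta.
For Tnf, ANT008+aPD-1 against ANT008+IgG gave -3.36 with positive controls, -1.90 without scaling and -0.17 with Cd3 chains, and against Scram+aPD-1 -3.60, -2.66 and -0.58. The interaction for Tnf was -3.22, -2.11 and -0.70 under the same scalings, -0.25 after background subtraction, -0.57 by voom, -0.33 without the shallowest 2 ANT008+aPD-1 lanes and -0.52 without the 2 lanes marked FLAG.
For Il2ra, Cd28, Nos2, Ptgs2, Il10 and Gzma with ANT008+aPD-1, positive controls gave -3.81, -3.17, -2.59, -2.91, -2.14 and -3.52, and no scaling -2.47, -1.87, -1.30, -1.72, -0.89 and -2.26. Cd3 chain scaling gave -0.17 for Ptgs2 and -0.26 for Gzma. In that comparison the median of all tested genes was -4.58 with positive controls, -3.44 without scaling and -1.91 with Cd3 chains.

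The number of genes called with ANT008+aPD-1 against Scram+IgG, 0 by edgeR, was 2 with TMM, 1 with the endogenous total, 192 with Cd3 chains (all lower), 122 with counts raised to background (Il2, Tnf, Il4 and Lta among them), 30 by DESeq2, 156 by voom and 83 without the 2 lanes marked FLAG. When ANT008+aPD-1 was compared with ANT008+IgG, DESeq2 called 5 genes and voom 5, and DESeq2 called 5 when it was compared with Scram+aPD-1. For the single agents voom called 44 genes with ANT008+IgG, and for Scram+aPD-1 it called 143. These held Ifng and Lta in the first case and Ifng and Tnf in the second.
When each mouse was left out in turn, the numbers called ranged from 0 to 84 for ANT008+aPD-1 against Scram+IgG (84 without Scram+IgG mouse 1, 68 without ANT008+aPD-1 mouse 2), from 0 to 26 against ANT008+IgG, from 0 to 35 against Scram+aPD-1 and from 0 to 1 for the interaction. The highest of the last 3 came without ANT008+aPD-1 mouse 2, where Il2 and Lta were called against either single agent.
The log2 fold changes that changed sign in this way ranged from -0.0680 to 2.62 for Ifng and -0.75 to 0.77 for Il4 with ANT008+IgG. With Scram+aPD-1 they ranged from -0.18 to 0.88 for Il2, -0.22 to 2.46 for Ifng, -0.43 to 1.25 for Il4 and -0.15 to 0.76 for Lta, the Tnf interaction from -0.61 to 0.41 and the Ifng interaction from -1.34 to 1.35.
Over all alternatives the FDR between ANT008+aPD-1 and Scram+IgG ranged from 0.0192 to 0.885 for Il2, 0.0207 to 0.885 for Ifng, 0.0299 to 0.956 for Tnf, 0.0211 to 0.955 for Il4 and 0.0192 to 0.910 for Lta. Of the cytokine genes with all ANT008+aPD-1 lanes above Scram+IgG, Il2 and Tnf as scaled here, there were 3 with the endogenous total, 0 with positive controls, without scaling or with Cd3 chains, and with Cd3 chains 1 had all Scram+aPD-1 lanes above Scram+IgG.
With the mouse number as a replicate block, 0 genes were called in each comparison, and the cytokine genes had values from 1.68 to 2.93 between ANT008+aPD-1 and Scram+IgG. The mouse numbers do not pair animals: 7 of 18 pairs of lanes with the same number had r above 0.1, and 13 of 36 others.

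A filter of genes above background in all 12 lanes keeps Tnf alone of the cytokine genes, so the others have no value under it. In the lanes of ANT008+aPD-1 mice 1 and 3 each count of the 5 genes was at most 24. With these 2 lanes left out, the remaining mouse was assumed to vary like those of the other groups. Of the 60 counts of the 5 genes, 50 were above the mean plus 1 SD of the negative probes, 39 above the mean plus 3 SD and 44 above the highest negative probe.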
